A study of Mus musculus with 6 samples.

Results

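The genes described here are 49 members of the macroautophagy and lysosome machinery, listed by name and found by gene symbol in the deposited table of 47729 genes, by a rule that uses no measured value. The list itself was written with earlier results of these data known. All 49 had a row, and all 49 passed the filter on low values that left 13602 genes for testing. RNA had been sequenced from follicular helper T (Tfh) cells, the CD4 T cells that help germinal centre B cells, purified from mouse spleens by sorting CD4+ TCR beta+ cells with high PD-1 and high CXCR5. One group was 3 samples with the genotype dko, Cbl-/- Cbl-b-/-, called double knockout here, and the other was 3 samples with the genotype wt ctrl, called control. Both groups had received the hapten-carrier antigen NP-OVA by intraperitoneal injection, so no sample was unimmunised. The sources used here do not give the age and strain of the animals or the cells in which the genes were deleted. The series concerns the CBL ubiquitin ligases and ICOS in Tfh cell development, and chaperone-mediated autophagy is in its title.

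Macroautophagy encloses cytoplasm in a growing double membrane, the phagophore, and delivers it to the lysosome for digestion. The ULK kinase complex starts the process, a class III PI3-kinase complex marks the membrane with a phosphoinositide, and lipid is then supplied while small ubiquitin-like proteins of the ATG8 family are coupled to it. Cargo receptors tie ubiquitinated material to those ATG8 proteins, and cathepsins and other acid hydrolases break it down. Chaperone-mediated autophagy is a separate route, in which single proteins cross the lysosomal membrane, and it shares the hydrolases but not the phagophore. In T cells, macroautophagy is known for clearing organelles and for supporting survival and memory.

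The libraries held 30528775, 38368885 and 36022153 reads assigned to genes in double knockout cells and 31041479, 23392254 and 35075509 in control cells. Values are normalised counts, that is, reads divided by a size factor per library. Cbl lay between 2221 and 3856 normalised counts in double knockout cells and between 8614.5 and 12945 in control cells, while Cblb lay between 7459 and 8054 in double knockout cells and between 6955 and 10037 in control cells. The deleted exons are not given, so a sum over the whole Cblb gene cannot check the label. The 10 Tfh label genes summed to between 237932 and 266709 in double knockout cells and between 261452 and 273688 in control cells, and none of them passed the test. The female transcript Xist was at 12769 or more in every double knockout library and at 970.4 or less in every control library, and the Y-linked gene Ddx3y was at 7.16 or less in double knockout cells and at 2812 or more in control cells. Sex and genotype therefore cannot be told apart in any result that follows. Dissociation stress genes summed to between 127795 and 180073 in double knockout cells and between 190727 and 230038 in control cells, and erythroid markers to between 11.6 and 102 in double knockout cells and between 280.1 and 612 in control cells; their part in the results was not tested.

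Across the 49 genes the RNA levels of the 2 genotypes lay close together, and a single gene passed the test: Lipa, which encodes lysosomal acid lipase, was lower in double knockout cells. No member passed as higher. The test was limma on log2(normalised count + 1), with an adjusted p below 0.05 over all 13602 genes; it called 1.85% of all genes higher and 1.07% lower. The 1 member called lower and the 0 called higher, of 49, are thus near those background shares. At an unadjusted p below 0.05, 3 members were higher and 2 lower, which is 5 of 49 (10.2%), while 2308 of the 13602 genes were below it. The quasi-likelihood test of edgeR on the recovered reads called 405 of the 13602 genes, and also 0 members higher and 1 lower. DESeq2 on the same reads called 1098 of the 13602 genes, and 2 members higher and 2 lower. In bulk RNA, fewer cells of a type and less RNA per cell cannot be told apart. The labels do not say that each sample was a separate mouse, so p-values measure only the spread between these samples, which may be technical.

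The estimates of the members centred on no difference. Their median log2 fold change, double knockout minus control, was 0.01, with 26 positive and 23 negative, against a median of -0.00 over all genes tested. The median size of the change, regardless of sign, was 0.12 for the members and 0.19 for all genes tested. The 95% interval of the fold change lay wholly within 1.5-fold for 35 of 49 members (71.4%) and for 45.3% of all genes tested. The members are abundant, with a median of 2056 normalised counts against 689 over all genes, and abundant genes have narrower intervals. With a mean of at least 1000 the shares were 31 of 36 members (86.1%) and 76.1% of the 5771 genes tested at that level. The median size of the change there was 0.11 for the members and 0.13 for all genes. For the members outside the 35, a change of 1.5-fold or more lies inside the interval.

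Read without a model, all 3 double knockout values lay above all 3 control values for 8 members and below them for 6. Over all genes tested the shares were 12.3% above and 11.3% below, so counts of about this size are also found among genes at large. The 8 were Ulk1, Ambra1, Atg2a, Atg2b, Wipi2, Tfe3, Ctsc and Ctsz, and the 6 were Becn1, Atg3, Sqstm1, Optn, Lipa and Psap. Scaled by library totals in place of the size factors, a scaling chosen after these values were seen, the numbers were 7 and 4. No share over all genes was taken at that scaling, so these numbers have no background beside them. With 3 samples against 3, an exact permutation test of a single gene cannot give a two-sided p below 0.1.

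**Figure D1:**
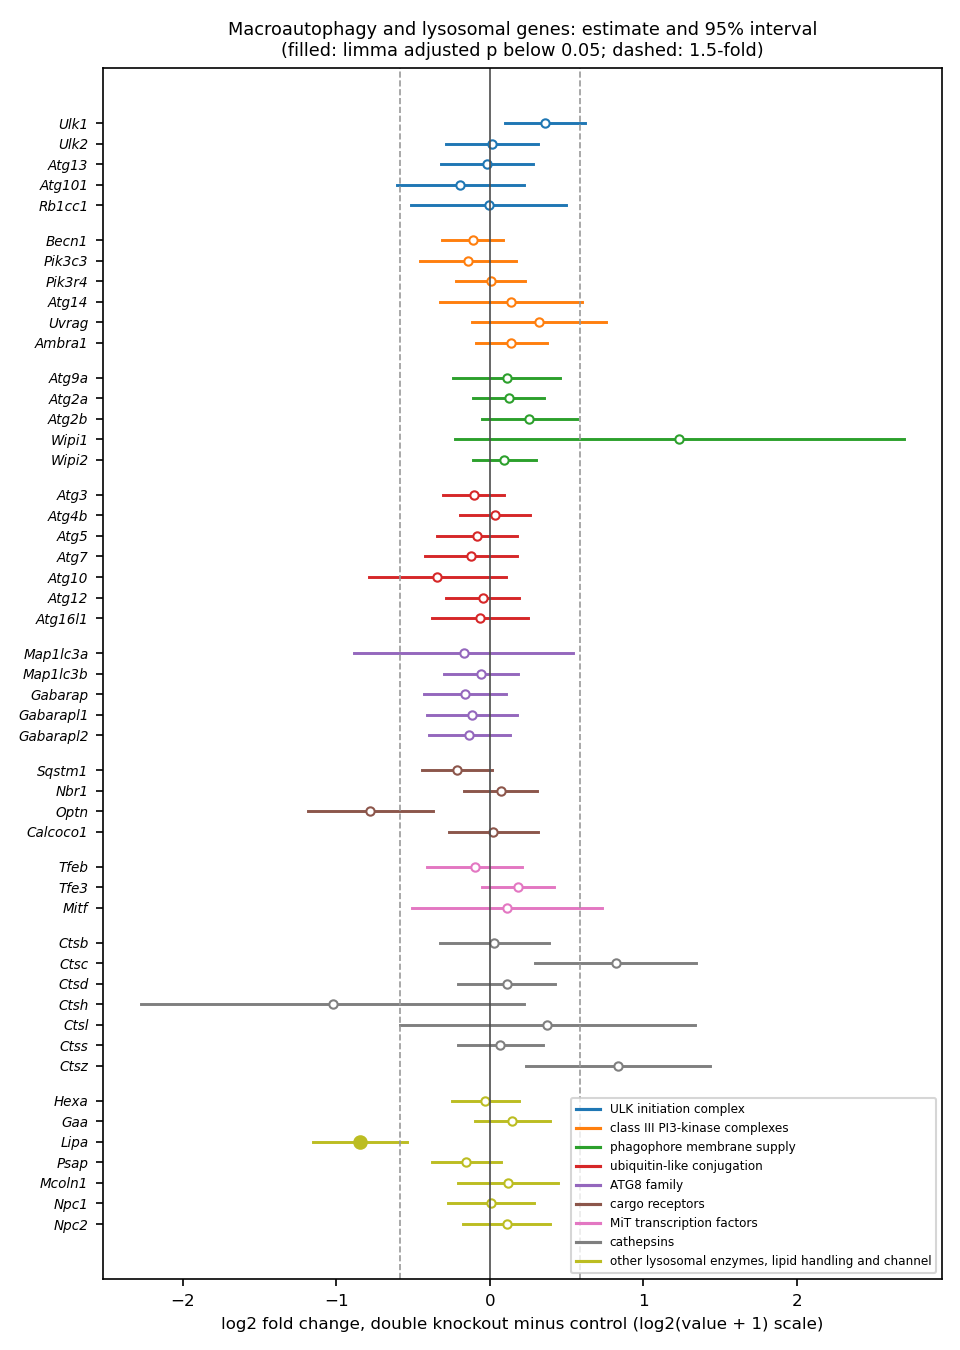
Log2 fold change of each of the 49 genes (x axis, log2(value + 1) scale, positive where higher in double knockout cells) with its 95% interval, arranged by role down the y axis. The filled symbol is Lipa at -0.85, the only gene past the limma threshold; most estimates lie between the dashed lines that mark 1.5-fold.

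The ULK initiation complex is the kinase that receives nutrient and energy signals. Ulk1, its catalytic subunit (ENSMUSG00000029512, GRCm38 chromosome 5, 110784488 to 110810097, minus strand), had 2369.5, 2097 and 2159 normalised counts in double knockout cells and 1697, 1922 and 1556 in control cells. The groups did not overlap, and the log2 fold change was 0.36 ± 0.11 (SE), with a limma adjusted p of 0.147. With library weights, which give less weight to libraries that stray from their group, Ulk1 passed as higher (0.39, limma adjusted p = 0.0364). Ulk2, its close relative, averaged 2410.5 ± 205 normalised counts in double knockout cells and 2397 ± 330.1 in control cells (SD, n = 3 each). The scaffold Rb1cc1 (log2 fold change -0.01 ± 0.22) and the regulatory subunit Atg13 (-0.02 ± 0.13) also lay near 0.

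Atg101, which stabilises Atg13 in the complex and had the highest level per kilobase of the 5, gave 746, 673 and 780.3 normalised counts in double knockout cells and 887, 646 and 1021 in control cells. Its groups overlapped, since control replicate 2 was the lowest library of all, and its log2 fold change was -0.19 ± 0.18. Over the 5 subunits 2 estimates were positive and 3 negative, with a median of -0.01.

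The class III PI3-kinase complexes make the lipid mark that recruits later factors. Their catalytic subunit Pik3c3 had a log2 fold change of -0.14 ± 0.14 and its regulatory subunit Pik3r4 had a 95% interval of -0.22 to 0.23. Becn1, the scaffold shared by these complexes, had 4059, 4089.5 and 3937 normalised counts in double knockout cells and 4417, 4147 and 4512 in control cells. All double knockout values were below all control values, by a small margin, and the log2 fold change was -0.11 ± 0.09 (limma adjusted p = 0.576). Of the exon bases of Becn1, 43.9% also belong to Cntd1 on the opposite strand, and the strand setting of the counting is not given, so reads of the pair may be mixed.

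Uvrag, the Becn1 partner known for endosome and autophagosome maturation, had 2268, 3436 and 2083 normalised counts in double knockout cells and 1877, 1927 and 2313 in control cells. Double knockout replicate 2 stood well above the other libraries, the groups overlapped, and the log2 fold change of 0.32 ± 0.19 did not pass (limma adjusted p = 0.456). Ambra1, which links Becn1 to its regulators and was the most abundant per kilobase here in double knockout cells (Becn1 was in control cells), had 3728, 4371 and 3654 normalised counts in double knockout cells and 3583, 3551 and 3497 in control cells. Its groups did not overlap, with a log2 fold change of 0.14 ± 0.10. Atg14, which directs the complex to the phagophore, was at 0.14 ± 0.20. The 6 genes split into 4 positive and 2 negative estimates, with a median of 0.07.

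Phagophore membrane supply rests on the scramblase Atg9a, the lipid transfer proteins Atg2a and Atg2b, and the WIPI proteins that read the phosphoinositide mark. All 5 estimates were positive, with a median of 0.12, and none passed the test. Atg2b had 3499, 3701 and 4183 normalised counts in double knockout cells and 3489, 3443 and 2639 in control cells, a log2 fold change of 0.26 ± 0.13 (limma adjusted p = 0.388). Its groups were parted by only a few counts between double knockout replicate 1 and control replicate 1, and control replicate 3 was the lowest library.

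Atg2a, the most abundant per kilobase of this set, had 3288, 3252 and 3126 normalised counts in double knockout cells and 3124, 3125 and 2661 in control cells (log2 fold change 0.12 ± 0.10). Its groups barely parted, and here too control replicate 3 was the lowest library. In that library the median deviation of the 5 genes from their own means over 6 libraries was -0.30. Wipi2, the WIPI protein that recruits the conjugation machinery, differed by a log2 of 0.09 ± 0.09 and Atg9a by 0.11 ± 0.15. Wipi1 was sparse, at 27.7, 18 and 12.5 normalised counts in double knockout cells and 15.4, 2.74 and 8.27 in control cells. Its groups overlapped, and its log2 fold change of 1.23 ± 0.64 had a 95% interval of -0.23 to 2.70.

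The ubiquitin-like conjugation system couples ATG8 proteins to lipid. Of its 7 genes 6 had negative estimates and 1 a positive one, with a median of -0.08, and none passed. Atg3, the E2-like enzyme that transfers ATG8 and the most abundant of the 7 per kilobase, had 2345, 2286 and 2318 normalised counts in double knockout cells and 2574, 2448 and 2463 in control cells. The libraries of each group lay close together and the groups did not overlap, yet the difference was small, at a log2 of -0.11 ± 0.09 (limma adjusted p = 0.601). Atg10, the E2-like enzyme for Atg12, had 284, 255 and 207 normalised counts in double knockout cells and 360.0, 269 and 316 in control cells. Double knockout replicate 1 exceeded control replicate 2, so the groups overlapped, and the log2 fold change was -0.34 ± 0.19. The E1-like enzyme Atg7 (-0.12 ± 0.13), the conjugate partners Atg5 (-0.08 ± 0.11) and Atg12 (-0.05 ± 0.10), their companion Atg16l1 (-0.06 ± 0.13) and the protease Atg4b (0.03 ± 0.10) completed the set.

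The ATG8 family comprises LC3 and GABARAP proteins, which sit on both faces of the phagophore. All 5 log2 fold changes were negative, between -0.17 and -0.06, with a median of -0.13, and none passed. Gabarap was the most abundant per kilobase, with 8127, 7185 and 6953 normalised counts in double knockout cells and 8829, 7272 and 8869 in control cells. Its groups overlapped, and the log2 fold change was -0.16 ± 0.12 (limma adjusted p = 0.546). Gabarapl2 had 1227, 1269 and 1192 normalised counts in double knockout cells and 1455, 1186 and 1421 in control cells, where replicate 2 lay below all 3 double knockout values (-0.13 ± 0.12). Gabarapl1, another GABARAP paralogue, had a log2 fold change of -0.12 ± 0.13. Map1lc3b, the LC3 gene used most often as an autophagosome marker, averaged 3687 ± 389 normalised counts in double knockout cells and 3829 ± 152 in control cells. Map1lc3a was far lower, at 111 ± 44.3 in double knockout cells and 119 ± 4.95 in control cells (SD, n = 3 each). Per kilobase, Gabarap stood at 4025 in double knockout cells and 4514 in control cells, and Map1lc3b at 491 in double knockout cells and 509 in control cells. The divisor was 1844 annotated exon bases for Gabarap and 7517 for Map1lc3b, so part of that gap rests on the annotated lengths. All values here are RNA levels, and lipid coupling of the proteins was not measured.

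Among the cargo receptors, Optn stood furthest from the control but did not pass the main test. It encodes optineurin, a receptor for ubiquitinated bacteria and mitochondria (ENSMUSG00000026672, chromosome 2, 5020642 to 5064051, minus strand). It had 709, 844 and 625 normalised counts in double knockout cells and 1552, 1124 and 1087 in control cells. All double knockout libraries were below all control libraries. The log2 fold change was -0.78 ± 0.18, with a 95% interval of -1.19 to -0.37 and a limma adjusted p of 0.0596. Some other fits called it lower and some did not. The adjusted p was 0.00234 with DESeq2, 0.0101 in limma with library weights and 0.0424 in limma without double knockout replicate 2, and the authors' deposited table gives 0.0026 with a log2 fold change of -0.71. With edgeR the adjusted p was 0.063. Of the limma fits that each left out a library, only 1 called Optn, and the largest adjusted p among them was 0.205.

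Sqstm1, which encodes the receptor p62 that is itself degraded by autophagy, was the most abundant receptor per kilobase. It had 7109, 7392 and 6197 normalised counts in double knockout cells and 8042, 7747 and 8191 in control cells, without overlap. The log2 fold change was -0.22 ± 0.10, with an interval that reached 0.01 (limma adjusted p = 0.321). Of its exon bases 17.3% also belong to Mrnip, and larger overlaps with other genes were found, besides Becn1, for Ctsd (34.4%), Atg9a (31.8%), Gabarapl1 (28.3%), Ctsl (26.85%) and Uvrag (17.6%). The receptor Nbr1 (0.07 ± 0.10) and Calcoco1 (0.02 ± 0.13) differed by less than their errors.

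The MiT factors TFEB, TFE3 and MITF are known to switch on many lysosomal and autophagy genes, and they act mainly through entry into the nucleus, which RNA levels do not show. Tfe3, on chromosome X, was the most abundant, with 3154, 3028 and 3675 normalised counts in double knockout cells and 2928, 2837 and 2880.1 in control cells. Its groups did not overlap, and the log2 fold change was 0.18 ± 0.10 (limma adjusted p = 0.416). Tfeb had 946, 753 and 774 normalised counts in double knockout cells and 805, 889.5 and 949 in control cells, overlapping, with a log2 fold change of -0.10 ± 0.13 and a value of 0.05 with library weights. Mitf was sparse, at 66.6, 67.2 and 72.5 normalised counts in double knockout cells and 59.5, 80.9 and 53.3 in control cells.

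The binding motif of these factors is known as the CLEAR element. Its core TCACGTGA holds the shorter E-box CACGTG, and both of these stretches read the same on either strand. The 250 bases before the transcript starts that RefSeq (GRCm38.p6) gives were searched, with windows for 40 of the 49 members. Such a start need not be the outermost start of the gene in the GENCODE annotation: the Atg7 start lies 27999 bases inside the gene. Of the 7 windows with a motif, 5 also hold between 48 and 211 bases annotated as exon, and the 2 without any are those of Atg5 and Atg7. CACGTG was present for 7 of the 40 (17.5%), against 9.89% of the 9233 tested genes with a window and 6.86% of all 27025 genes with one. TCACGTGA was present for 3 of the 40 (7.5%), against 1.90% of tested genes. The stretches around the motifs are shown because they carry the letters these factors are known to bind; binding was not measured. Each is 30 bases, 5′ to 3′ on the gene's strand, with the motif in capitals.
Atg3 at chr16:45158723-45158752, plus strand: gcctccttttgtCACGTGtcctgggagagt
Atg3 at chr16:45158746-45158775, plus strand: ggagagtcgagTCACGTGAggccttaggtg
Atg5 at chr10:44268313-44268342, plus strand: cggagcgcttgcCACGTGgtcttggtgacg
Atg7 at chr6:114670952-114670981, plus strand: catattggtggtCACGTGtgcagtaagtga
Ctsd at chr7:142388048-142388077, minus strand: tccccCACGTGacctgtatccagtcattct
Ctsd at chr7:142387908-142387937, minus strand: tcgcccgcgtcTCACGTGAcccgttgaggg
Ctsl at chr13:64370739-64370768, minus strand: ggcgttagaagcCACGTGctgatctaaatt
Gaa at chr11:119267811-119267840, plus strand: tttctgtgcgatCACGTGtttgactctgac
Mcoln1 at chr8:3500436-3500465, plus strand: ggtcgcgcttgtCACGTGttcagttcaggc
Mcoln1 at chr8:3500462-3500491, plus strand: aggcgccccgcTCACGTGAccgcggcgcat

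None of these 7 genes passed the test. Their log2 fold changes ran from -0.12 to 0.37 with a median of 0.11, and the smallest limma adjusted p was 0.559. Atg3, Ctsd and Mcoln1 carried both a lone CACGTG and a full TCACGTGA. The motif stood between 14 bases before the RefSeq start, in Atg5, and 245 bases before it, in Ctsd. The windows of Lipa, Optn, Ctsc and Ctsz held no CACGTG, which says only that these letters are not in those stretches.

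Lipa had the clearest difference of the 49. Its product, lysosomal acid lipase, frees fatty acids and cholesterol from lipids delivered to the lysosome (ENSMUSG00000024781, chromosome 19, 34492318 to 34527474, minus strand). It had 4500.3, 5612 and 4561 normalised counts in double knockout cells and 9591, 9258 and 7532 in control cells. Every double knockout library was below every control library, and the mean of the double knockout was 0.556 times that of the control. The log2 fold change was -0.85 ± 0.13, with a 95% interval of -1.15 to -0.54 and a limma adjusted p of 0.0195. The authors' deposited table gives -0.79 with an adjusted p of 1.1e-05. Leaving out single libraries kept the log2 fold change between -0.95 and -0.78. The limma call was lost in 3 of those 6 fits: those lacking double knockout replicate 1 (adjusted p = 0.108), control replicate 1 (0.0975) or control replicate 2 (0.0862). No exon base of Lipa overlaps another gene. The 250 bases before its start are shown, as RefSeq gives them, because Lipa is the only member past the threshold of the main test.
Lipa at chr19:34527475-34527724, minus strand, GRCm38.p6: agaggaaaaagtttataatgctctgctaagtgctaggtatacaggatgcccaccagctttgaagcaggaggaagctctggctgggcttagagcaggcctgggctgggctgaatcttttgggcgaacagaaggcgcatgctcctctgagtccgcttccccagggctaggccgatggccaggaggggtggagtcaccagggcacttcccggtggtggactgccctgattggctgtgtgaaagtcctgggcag

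The cathepsins, the lysosomal proteases, had 6 positive estimates and 1 negative, with a median log2 fold change of 0.11; none passed the main test. Ctsc, also known as dipeptidyl peptidase I, activates granule proteases of cytotoxic cells (ENSMUSG00000030560, chromosome 7, 88278085 to 88310888, plus strand). It had 1719.8, 1596 and 1516 normalised counts in double knockout cells and 709, 787 and 1358 in control cells. The groups did not overlap, but control replicate 3 lay much nearer to the double knockout than its fellows. The log2 fold change was 0.82 ± 0.23, with a limma adjusted p of 0.107, and without control replicate 3 it was 1.11 (limma adjusted p = 0.0181). The adjusted p was 0.0291 with DESeq2 and 0.00749 in limma with library weights, and the authors' deposited table gives 0.0268 with a log2 fold change of 0.66. With edgeR the adjusted p was 0.146. No other limma fit that lacks a library called Ctsc, and the largest adjusted p among them was 0.327.

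Ctsz, a carboxypeptidase (ENSMUSG00000016256, chromosome 2, 174427493 to 174439039, minus strand), had 3866, 2765 and 6334 normalised counts in double knockout cells and 2114, 2331 and 2421 in control cells. The control libraries lay close together, while the double knockout libraries spread widely above them. The log2 fold change was 0.83 ± 0.26, with a limma adjusted p of 0.147, and it ran from 0.52 to 1.11 over the fits that lack a library. The limma adjusted p was 0.0272 without double knockout replicate 2 and 0.0267 with library weights, DESeq2 gave an adjusted p of 0.011, and the authors' deposited table gives 0.00818 with a log2 fold change of 0.78. With edgeR the adjusted p was 0.118. No other limma fit that lacks a library called Ctsz, and the largest adjusted p among them was 0.354.

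Ctsb, a major lysosomal cysteine protease and the most abundant cathepsin per kilobase, had 29746, 26300.4 and 39304 normalised counts in double knockout cells and 31033, 30586 and 30615 in control cells. The control libraries were nearly identical, and the double knockout libraries lay on both sides of them (log2 fold change 0.03 ± 0.15). Ctsl showed the same wide spread, with 1048, 429 and 1572 in double knockout cells and 845, 609 and 632 in control cells (0.37 ± 0.42). In Ctsb, Ctsl and Ctsz the double knockout libraries followed the order of Mki67, a gene of proliferating cells, which had 16174, 7630 and 26640 normalised counts in double knockout cells and 8397, 10016 and 9291 in control cells. That order, examined after the values were seen, was shared by 6 of 49 members (12.2%) and by 21.5% of all genes tested. Its part in the spread was not tested.

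The remaining cathepsins were Ctsd, the aspartyl protease (0.11 ± 0.14), Ctss, known for trimming the invariant chain in antigen-presenting cells (0.07 ± 0.12), and Ctsh, which was nearly absent. Ctsh had 6.15, 13.1 and 6.26 normalised counts in double knockout cells and 21.5, 9.59 and 24.8 in control cells, with a log2 fold change of -1.02 ± 0.54. Since cathepsins are abundant in myeloid cells, marker genes of other cell types were read beside them. The 18 monocyte and macrophage markers, of which 13 were tested and none passed, summed to between 659 and 829 normalised counts in double knockout cells and between 511 and 761 in control cells. Cd14, Fcgr1 and Marco were below 10 in every library. Cd68, a lysosomal gene of macrophages, had 322, 173 and 546 in double knockout cells and 88.2, 108 and 117 in control cells. It was singled out after its values were seen and is not typical of its list, in which 9 of the 13 tested markers had negative estimates and 4 positive ones. Without Cd68 the list summed to between 283 and 505 in double knockout cells and between 394 and 673 in control cells. Dendritic cell markers summed to between 49.2 and 110.7 in double knockout cells and between 28.5 and 57.6 in control cells. Of these 9 sparse markers only 2 were tested and neither passed, and 5 were below 10 in every library. The 5 MHC class II markers, none of which passed, summed to between 2518 and 3408 in double knockout cells and between 1806 and 2389 in control cells, without overlap. B cell markers summed to between 20034 and 28270 in double knockout cells and between 21998 and 25248 in control cells. Of the 8 tested, 7 had negative estimates and 1 a positive one, and none passed. Plasma cell markers summed to between 2366 and 7823 in double knockout cells and between 3006 and 4819 in control cells. Of the 5 tested, 4 had negative estimates and 1 a positive one, and none passed. The CD8 markers, mainly Cd8b1, which was called lower, summed to between 113 and 188 in double knockout cells and between 420.5 and 509.7 in control cells. Markers of NK, NKT and gamma-delta T cells summed to between 6569.7 and 14319 in double knockout cells and between 3242 and 4025 in control cells; of the 8 markers 6 were tested, Trdc was called higher and Klrb1c lower, and Ncr1 was below 10 in every library. Granulocyte markers summed to between 13.9 and 119 in double knockout cells and between 57.4 and 127 in control cells. All 5 tested had negative estimates, and none passed. Regulatory T cell markers summed to between 8588 and 17821 in double knockout cells and between 12958 and 17892 in control cells. Of these 5, 4 had positive estimates and 1 a negative one, and none passed. The part of these cell types in the cathepsin values was not tested.

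**Figure D2:**
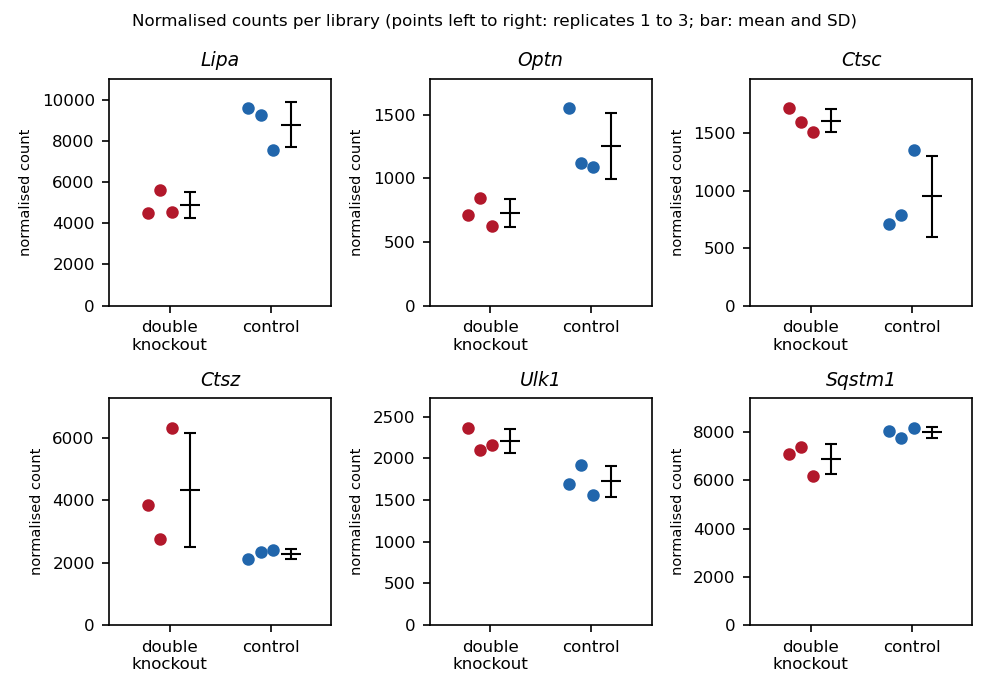
Normalised counts (y axis, from 0) of 6 genes in each library, with double knockout libraries left of control libraries; points are replicates and the bar beside them is the mean with its SD (n = 3). Lipa, Optn and Sqstm1 are below the control in every double knockout library, and Ctsc, Ctsz and Ulk1 are above it.

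Besides Lipa, the other lysosomal enzymes, lipid carriers and the channel had small estimates. Psap, the precursor of the saposins that help degrade sphingolipids, was the most abundant of all 49 genes per kilobase. It had 15748, 15205 and 14011 normalised counts in double knockout cells and 16567, 15910.0 and 17544 in control cells. The groups did not overlap, but the log2 fold change was only -0.15 ± 0.10 (limma adjusted p = 0.484). The cholesterol exporters Npc1 and Npc2, which receive the cholesterol that LIPA frees, had log2 fold changes of 0.01 ± 0.12 and 0.11 ± 0.12. The hydrolases Hexa (-0.03 ± 0.09) and Gaa (0.14 ± 0.11) and the calcium channel Mcoln1 (0.12 ± 0.14) did not pass either. Of these 7 genes 6 had an interval within 1.5-fold.

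**Figure D3:**
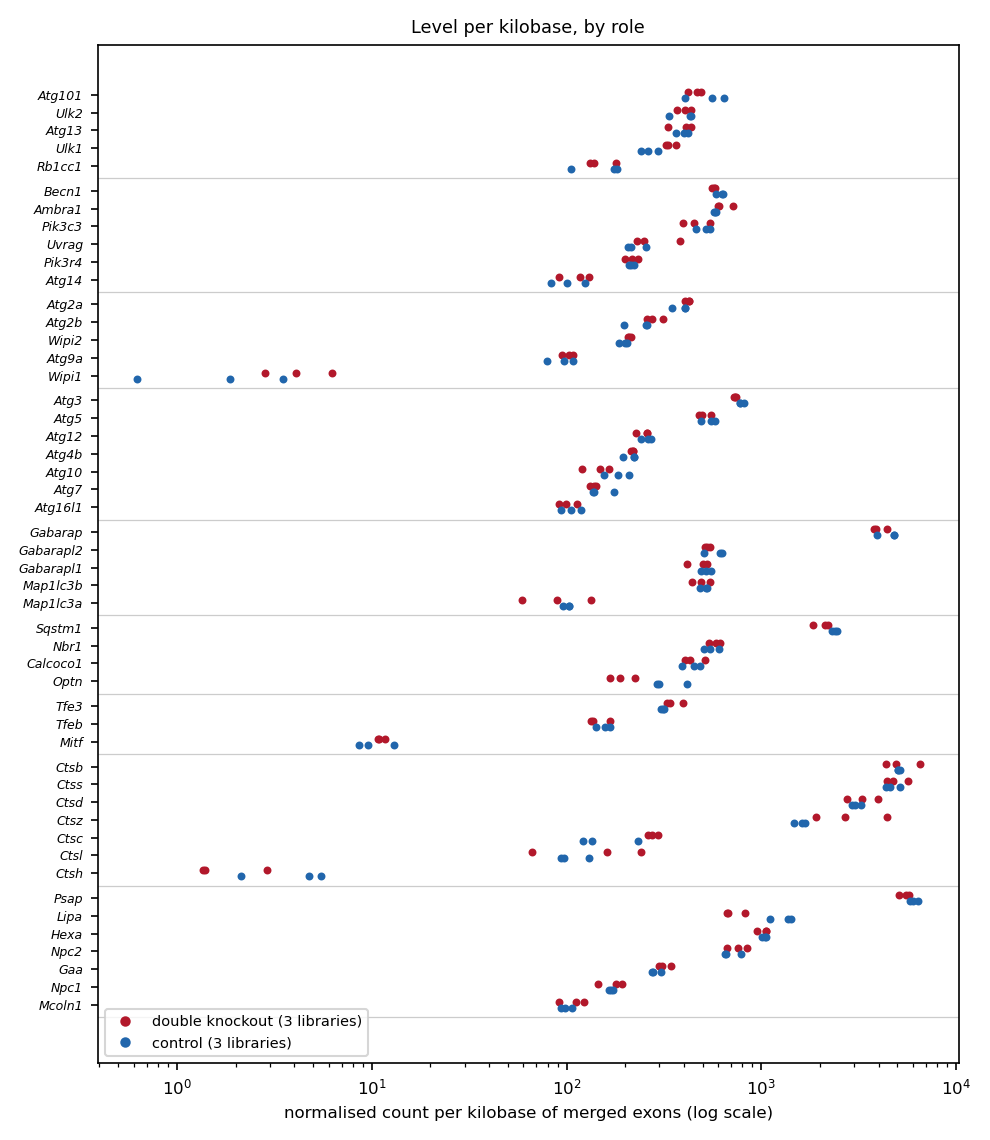
Normalised counts per kilobase of merged exons (x axis, log scale) for each gene, by role, with 3 double knockout points above 3 control points. Psap is highest, at 5462 in double knockout cells and 6076 in control cells, and the sparse Wipi1 stands at 4.4 in double knockout cells and 1.99 in control cells.

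Levels per kilobase spanned a wide range. They rest on merged exon lengths, which join all annotated transcripts of a gene, so any order between genes is approximate. The highest were Psap, at 5462 in double knockout cells and 6076 in control cells, Ctsb, at 5253 in double knockout cells and 5081 in control cells, and Ctss, at 4938 in double knockout cells and 4697 in control cells. In double knockout cells the ranges of these 3 genes overlapped. In control cells Psap, at 5798 or more in each library, lay above Ctsb, at 5129 or less, while Ctsb and Ctss overlapped. The ULK subunits, all of low abundance beside them, lay between 150.1 and 459 per kilobase in double knockout cells and between 154 and 533 in control cells. Wipi1, Ctsh and Mitf were the lowest in both genotypes.

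Between libraries the 49 genes as a whole took a stable part of the RNA. Their share of reads was 0.511%, 0.498% and 0.499% in double knockout cells and 0.512%, 0.492% and 0.496% in control cells. The cathepsins alone took 0.167%, 0.148% and 0.190% in double knockout cells and 0.150%, 0.148% and 0.154% in control cells. The median deviation of the members from their own means was 0.03, 0.04 and -0.11 on the log2 scale in double knockout cells and 0.06, -0.01 and -0.02 in control cells. Double knockout replicate 3 was the lowest of the 6 libraries for 16 members and control replicate 3 for 12, while control replicate 1 and double knockout replicate 1 were the lowest for 4 each.

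**Figure D4:**
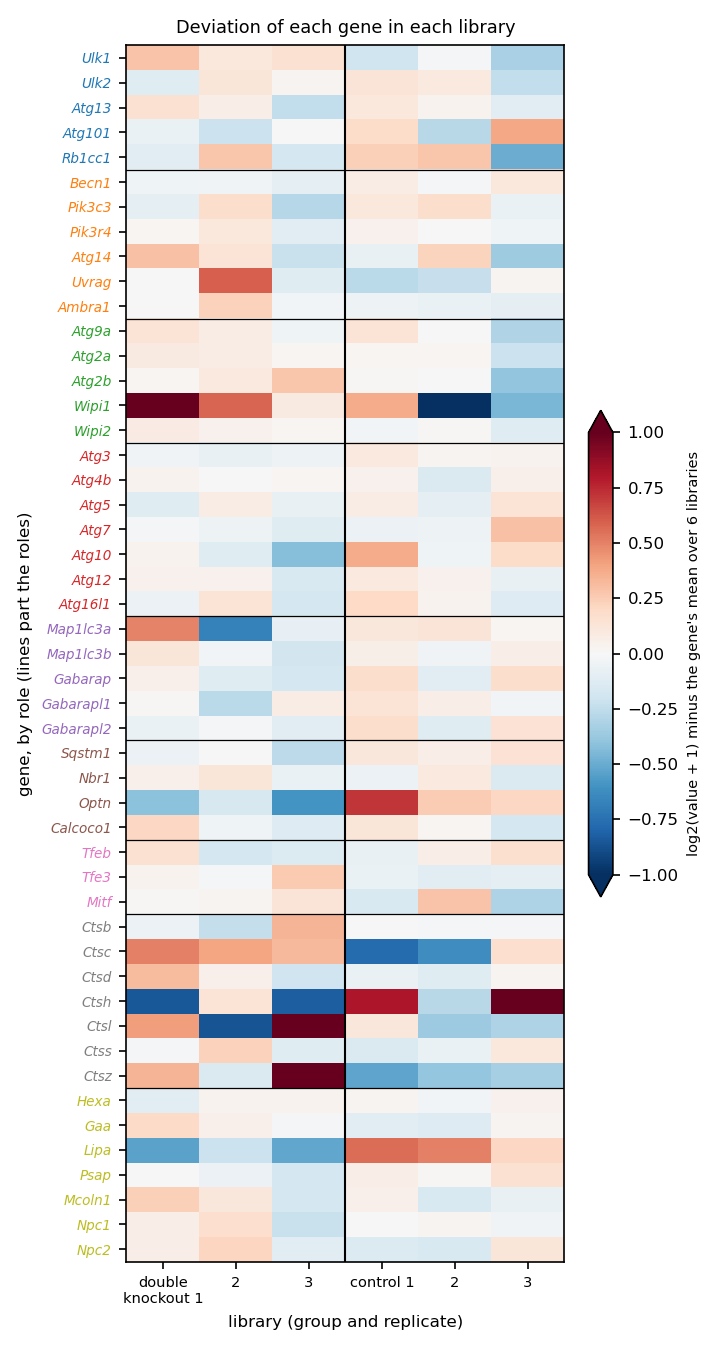
Deviation of each gene (rows, by role) in each library (columns, double knockout left, control right) from the gene's mean over the 6 libraries, on the log2(value + 1) scale. Lipa and Optn split by genotype, whereas Ctsl and Wipi1 vary within groups.

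A wider list of 126 autophagy and lysosome genes outside the 49, also written with earlier results known, had 121 genes tested. In limma 1 passed as higher, against 1.85% of all genes, and 0 as lower, against 1.07%. At an unadjusted p below 0.05, 11 of the 121 were higher and 9 lower, against 1292 and 1016 of all 13602 genes. DESeq2 called 5 higher and 2 lower, against 1098 calls in both directions together among all 13602 genes. The estimates were positive for 51 and negative for 70, with a median of -0.03. The gene that passed was Ctsa, the carboxypeptidase also called protective protein, which is known to cut the chaperone-mediated autophagy receptor LAMP2A. It had 10428, 11209 and 9359 normalised counts in double knockout cells and 6184, 5554 and 6341 in control cells, a log2 fold change of 0.78 ± 0.11 (limma adjusted p = 0.0129). Its call was lost without double knockout replicate 1, control replicate 1 or control replicate 2, where the largest limma adjusted p was 0.0693.

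Other genes of that list with the smallest p of their group did not pass the main test, though some passed in other fits. Gnptab, which builds the mannose 6-phosphate tag that sorts hydrolases to lysosomes, had 6859.6, 5845 and 8018 normalised counts in double knockout cells and 4760.5, 4493 and 3717 in control cells, a log2 fold change of 0.67 ± 0.14 with a limma adjusted p of 0.0526. Atp6ap2, an accessory subunit of the proton pump on chromosome X, had 1821, 2057 and 2005 in double knockout cells and 2590.5, 2760.4 and 2420.0 in control cells (-0.40 ± 0.10, limma adjusted p = 0.0803). In both genes the groups did not overlap. Gnptab was called higher in the authors' deposited table, by DESeq2 (adjusted p = 0.00166) and, in limma, with library weights (adjusted p = 0.0132), a pseudocount of 10, no filter, quantile scaling or double knockout replicate 2 left out. Atp6ap2 was called lower in the authors' deposited table, by DESeq2 (adjusted p = 0.0188) and with library weights (limma adjusted p = 0.0123). Of the 16 proton pump genes tested, 5 had positive estimates and 11 negative ones, from -0.40 to 0.83. The pump gene Atp6v0a1 and Igf2r were called higher by DESeq2 and in the authors' deposited table, and both passed with library weights. Rubcn, a brake on the PI3-kinase complex, was at 0.41 ± 0.11 and Flcn, which governs nutrient signalling to TFEB and TFE3, at -0.38 ± 0.11; DESeq2 called both, and library weights Flcn. Vps11, a subunit of the tethering complexes that serve fusion, was at -0.30 ± 0.10 and Sec62, a receptor for endoplasmic reticulum, at -0.27 ± 0.11.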

How the data were processed

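The deposited table gives a signal per gene and library that its name calls normalised relative to library size. The size factors were inferred from the values: the smallest nonzero value of each library was taken as a single read. Per the submitters' processing notes, GRCm38, DESeq2 1.12.3, featureCounts 1.4.6 and STAR 2.5.1b were used, with no role stated; the sources used here do not give the annotation release, strand setting or treatment of multi-mapped reads. Whole read counts were recovered from the deposited values (100% within 0.001 of a read). The authors' comparison in the same table holds a log2 fold change, a score (the test statistic) and a p-value, per the file headers, and was used as an alternative.

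The main test was limma-trend 3.58.1 (R 4.3.3) with genotype alone in the model, on log2(value + 1), two-sided, for genes with at least 10 in at least 3 of 6 libraries, adjusted by Benjamini-Hochberg over 13602 genes. The +1 understates changes of low genes. Alternatives were edgeR 4.0.16 and DESeq2 1.42.0 on recovered reads (405 and 1098 genes called), other pseudocounts, filters and scalings, library weights, a replicate block and each library left out. Libraries within a group differed beyond counting noise (10.6 to 95.5 chi-square units per degree of freedom). Levels per kilobase used merged exons of GENCODE M21. The members and lists were chosen with earlier results of these data known. Values per library are given for members past a threshold in limma, edgeR, DESeq2 or the authors' table, the 2 smallest p per role and the most abundant per role; Ulk2, Map1lc3a, Map1lc3b, Mitf, Ctsh, Ctsl, Cd68 and Mki67 were added after their values were seen. Plots used Python 3.11.15 and matplotlib 3.10.9.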

Additional observations from a re-analysis of the deposited data

How the results depend on the processing

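Lipa stayed lower in every alternative run, and it lost its call only in the 3 fits that left out double knockout replicate 1, control replicate 1 or control replicate 2. Members called higher, 0 in the main test, were 3 with library weights (Ctsc, Ctsz, Ulk1), 2 with DESeq2 and 2 in the authors' deposited table (Ctsc and Ctsz in each), and 0 to 1 with each library left out. Members called lower, 1 in the main test, were 2 in each of these 3 (Lipa and Optn) and 0 to 2 with each library left out. For the wider list, 1 higher became 2 with a pseudocount of 10, without a filter or with quantile scaling, 4 with library weights, 5 with DESeq2, 4 in the authors' deposited table and 0 to 2 with each library left out. Its 0 lower became 4, 2 and 1 with library weights, DESeq2 and the authors' deposited table, and 0 to 1 with each library left out. Over all genes, 398 calls became 1368 with library weights, 1098 with DESeq2, 993 in the authors' deposited table and 58 to 498 with each library left out (69 without double knockout replicate 1, 58, 117 and 232 without control replicates 1, 2 and 3). Tfeb reversed to 0.05 and Ctsb to -0.0231 with library weights, and Ctsb lay between -0.14 and 0.15 over the fits that lack a library, lowest without double knockout replicate 3. The cause of these changes was not tested. The median log2 fold change of the members lay between -0.0235, without double knockout replicate 2, and 0.0337, with library weights.

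The replicate numbers shared by the groups were not taken as pairs, because the titles do not state that they mark pairs. The deviations of same-numbered libraries correlated at 0.074, 0.054 and 0.092. Each library did correlate best with its own number, a hint from the data and not from the design. With the replicate block 265 genes were called, and Lipa was the only member among them (limma adjusted p = 0.0307). Wipi1, Mitf and Ctsh are limited by depth, and their intervals are wide.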
